A study of Homo sapiens with 18 samples.

Results

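The replication-dependent histone cluster genes were read by 74 probes for 70 gene symbols, among the 21111 probes of a targeted whole-transcriptome panel. They were chosen by name, as every row whose symbol began with HIST1H, HIST2H, HIST3H or HIST4H. By histone class these were 6 probes for the linker histone H1, 19 for H2A, 20 for H2B, 14 for H3 and 15 for H4, and 4 symbols (HIST1H2BC, HIST1H2BD, HIST1H2AK and HIST2H2AA4) had 2 probes each. All 70 symbols were annotated as protein-coding in GENCODE v29 (GRCh38), 55 in the HIST1 cluster at chr6:25726132-27893843, 11 in HIST2 at chr1:149782689-149887916, 3 in HIST3 at chr1:228424845-228460470, and HIST4H4 alone at chr12:14767999-14771131. Of these, 57 had a single exon in every annotated transcript.

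The study asked how the transcriptome of triple-negative breast cancer cells changes when ASAP1, an Arf GTPase-activating protein gene that is gained in copy number in such tumors, is silenced. The lines used were all established: BT549 and Hs578T, which are mesenchymal-like, and SUM149PT, which is basal-like. Cells in 96-well plates received either siASAP1, a pool of siRNAs to ASAP1, or siCtrl, the negative control, which the methods describe as a pool of kinase siRNAs and other passages as non-targeting, both at 50 nM, and were lysed after 72 h. Each of the 6 groups held 3 libraries, described by the study as biological triplicates, which gave 18 libraries. Nothing ties libraries to separate cultures beyond that description, so p-values measure the spread between these libraries.

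Replication-dependent histone genes supply the core histones H2A, H2B, H3 and H4, and the linker H1, that package newly made DNA. Their transcription rises as cells enter S phase, under the cyclin E/CDK2 substrate NPAT, and falls when replication ends. Their mRNAs lack introns and, for the most part, a poly(A) tail, and end in a conserved stem-loop bound by SLBP, which carries their processing, translation and decay. They differ in this from the replacement histones, such as H2A.Z and H3.3, whose genes lie outside the clusters and are expressed throughout the cell cycle.

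The stem-loop is shown because it is the feature that sets these transcripts apart from other mRNAs. The 16-base histone stem-loop pattern, a pair of complementary arms around a U-rich loop, searched on the transcript strand after the stop codon of GENCODE v29 transcripts, was present for 32 of the 70 symbols, between 22 and 67 bases past the stop codon. Of the 35 symbols with an annotated transcript running at least 50 bases past the stop codon, 31 held it. The other symbols mostly have models that end at or near the coding sequence, so for these no match says only that the letters are not in the model. Across all protein-coding gene names, 0.559% held the pattern anywhere in a transcript. The site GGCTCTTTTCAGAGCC was the most common, in 17 of the 32. Sites of members described below are given with up to 5 flanking bases, the 16-base stem-loop in capitals, for HIST2H2AA3 (chr1:149842218-149842243, minus strand), HIST1H2BD (chr6:26158582-26158607, plus), HIST3H3 (chr1:228424848-228424873, minus), HIST1H3H (chr6:27810511-27810536, plus) and HIST1H4H (chr6:26285126-26285151, minus).
HIST2H2AA3: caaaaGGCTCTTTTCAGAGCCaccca
HIST1H2BD: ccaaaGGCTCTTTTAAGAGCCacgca
HIST3H3: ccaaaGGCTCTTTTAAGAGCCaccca
HIST1H3H: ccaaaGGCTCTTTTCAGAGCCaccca
HIST1H4H: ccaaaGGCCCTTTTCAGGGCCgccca

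Promoters are shown because the classes carry different elements. Whether these bear on the changes after siASAP1 was not tested. RefSeq promoter sequences (GRCh38.p14) were matched for 65 of the 70 symbols, and the 250 bases before each start were searched on both strands. The octamer ATTTGCAT, the core site of POU2F1 and its relatives, was in 11 of 16 H2A and 14 of 18 H2B promoters, 1 of 12 H3, 0 of 6 H1 and 0 of 13 H4, against 1.63% of all 35116 promoters. The H3 promoter, that matched to HIST1H3D, was the same stretch as that of HIST1H2AD (chr6:26199294-26199519). Divergent H2A and H2B genes can share a stretch, as HIST1H2AC and HIST1H2BC do, which was then counted in both classes. The H1 box AAACACA was in 6 of 6 H1 promoters and in none of the other 4 classes, against 4.82% of all. The short sequence GGTCC, part of the element bound by the H4 factor HINFP, was in 12 of 13 H4 promoters and at most 4 promoters of any other class, although 40.7% of all promoters held it. CCAAT was in every H1, H2A, H2B and H3 promoter matched but in 3 of 13 H4 (32% of all), and TATAAA was in 43 of the 65 (10.7% of all). The sequences below run up to the base before the start, with these 5 motifs in capitals, and bases that overlapped an annotated exon were left off. They are the stretch between the divergent genes HIST1H2BC and HIST1H2AC (chr6:26123927-26124144, read on the minus strand), and the promoters of HIST1H1B (chr6:27867589-27867838, minus), HIST1H3F (chr6:26250636-26250885, minus) and HIST1H4B (chr6:26027284-26027533, minus).
HIST1H2BC: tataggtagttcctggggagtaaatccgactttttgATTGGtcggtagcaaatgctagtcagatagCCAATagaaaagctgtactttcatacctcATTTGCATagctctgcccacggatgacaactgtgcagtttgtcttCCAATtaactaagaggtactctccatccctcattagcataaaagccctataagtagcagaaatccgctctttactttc
HIST1H1B: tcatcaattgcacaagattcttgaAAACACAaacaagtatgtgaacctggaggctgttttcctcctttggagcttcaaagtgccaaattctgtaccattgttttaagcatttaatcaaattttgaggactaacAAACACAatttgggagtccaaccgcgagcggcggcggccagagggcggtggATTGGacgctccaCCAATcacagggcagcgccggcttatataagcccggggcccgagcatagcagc
HIST1H3F: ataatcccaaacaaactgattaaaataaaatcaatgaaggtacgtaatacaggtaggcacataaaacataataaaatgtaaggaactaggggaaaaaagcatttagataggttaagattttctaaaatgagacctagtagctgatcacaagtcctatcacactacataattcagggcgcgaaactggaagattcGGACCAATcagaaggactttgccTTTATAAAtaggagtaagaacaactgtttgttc
HIST1H4B: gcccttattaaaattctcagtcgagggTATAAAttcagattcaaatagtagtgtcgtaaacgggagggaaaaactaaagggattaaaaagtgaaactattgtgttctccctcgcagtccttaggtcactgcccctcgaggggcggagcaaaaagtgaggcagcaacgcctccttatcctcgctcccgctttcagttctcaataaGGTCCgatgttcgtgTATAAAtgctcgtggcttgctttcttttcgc

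**Figure D1:**
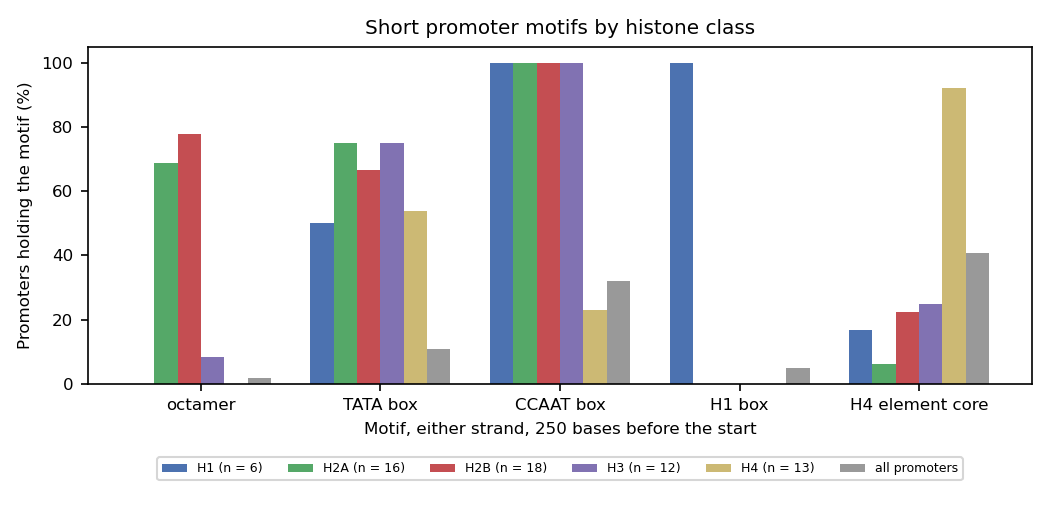
Share of promoters (y axis, percent) that held each of 5 short motifs on either strand in the 250 bases before the start, for members by histone class (colored bars, n in the key) and for all 35116 RefSeq promoters (grey bars). The octamer bars stand over H2A (11 of 16) and H2B (14 of 18), the H1 box over H1 (6 of 6) and the H4 element core highest over H4 (12 of 13).

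Many members are near copies of each other. Of the 70 symbols, 36 shared at least one 50-base stretch of annotated transcript with another member, and for HIST1H4K, HIST2H2AA3, HIST2H3A and HIST2H3C every such stretch was shared. The files do not list the probe sequences, so which copy or transcript a probe reads was not determined, and values of near-identical genes are uncertain as to gene.

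Libraries held 4633629 to 12488575 reads. ASAP1 itself served as the check of the labels. Its normalised count was 944 to 1107 in siCtrl and 367 to 783 in siASAP1 libraries of BT549, and 1414 to 2697 against 782 to 1261 in Hs578T. In SUM149PT the siASAP1 libraries gave 282, 468 and 184 and the siCtrl libraries 1087, 189 and 1314, so the library labelled SUM149PT siCtrl replicate 2 lay within the siASAP1 range. The SUM149PT counts and sums below, and the fold changes of some of the genes, are therefore given with and without it. EPCAM, an epithelial adhesion gene, was at 18650 to 36679 in SUM149PT and at most 77.8 elsewhere, and VIM, the mesenchymal intermediate filament gene, was at 27346 or more on its stronger probe in BT549 and Hs578T and at most 2965 in SUM149PT. CDH2, another mesenchymal marker gene, did not separate the lines in this way. It was at 1434 to 2325 in SUM149PT, 253 to 691 in BT549 and 3222 to 5543 in Hs578T. The basal keratin genes KRT5 and KRT14 were at most 64.1 and 12.8 in any library, ZEB1 was at most 2.53, and a probe of the estrogen receptor gene ESR1 reached 191 in SUM149PT.

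Of the 74 members, 1 had no read in any library, and 53 had at least 1 read in every library. A mean normalised count of 10 over the libraries of a comparison was required for testing, which 60 members passed in BT549, 62 in Hs578T and 64 in SUM149PT (56 in all 3). HIST1H2BG, HIST1H2BH, HIST1H4L, HIST1H2BK, HIST1H1T, HIST1H3I and HIST2H2BE passed in no fit. Some members passed through one group alone. In SUM149PT these were HIST1H2AE, HIST1H3J, HIST3H3 and HIST1H4C and in BT549 HIST3H3, with a siASAP1 mean under 10, and in Hs578T HIST1H2AA, with a siCtrl mean under 10. In each single-line comparison a member was called at unadjusted limma p under 0.05 with an absolute log2 fold change over 1, the limits the study used.

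Many histone cluster transcripts fell after siASAP1 in SUM149PT by the limits the study used, though none by adjusted p, and few were called in the other lines. In SUM149PT, 37 of 64 members tested fell (57.8%) and 0 rose, where 4.29% of all probes tested were called lower and 5.27% higher. The called members came from all 5 classes: 4 of 5 H1, 10 of 18 H2A, 10 of 15 H2B, 7 of 13 H3 and 6 of 13 H4. HIST1H2AE among the H2A and HIST3H3 among the H3 passed the filter through siCtrl alone, and so had to be lower. The fold change was negative for 61 of the 64 (46.5% of all probes), with a median of -1.85 against 0.09 for all probes on the log2 scale. None passed a Benjamini-Hochberg adjusted p of 0.05 over all probes, where 0 of 10078 probes did, and the smallest adjusted p was 0.26, while 37 had an unadjusted p under 0.05, which is part of the rule, as did 10.2% of all probes. With voom weights 37 members were called lower, 0 by adjusted p, and the share of all probes was not counted for that fit. Scaling by library totals moved the median of all probes to 0.29 and the share of lower among all calls from 44.9% to 26.2%. It left 30 members lower and 61 negative, where 267 probes in all were called lower, against 432 as deposited. Fewer cells in S phase and less histone mRNA per cell cannot be told apart in lysates of whole wells.

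The sum of the 74 normalised counts in SUM149PT was 33263, 117196 and 52101 in siASAP1 replicates 1, 2 and 3, and 288351, 115207 and 286769 in siCtrl. The siASAP1 mean was 29.3% of the siCtrl mean, or 23.5% without the library labelled SUM149PT siCtrl replicate 2. That library lay just under the highest siASAP1 library, and the other siCtrl pair lay far above it. The same sums ran from 98926 to 203792 in siCtrl and 94417 to 196258 in siASAP1 of BT549 (103.8% of the siCtrl mean), and from 152502 to 214956 against 156672 to 178619 in Hs578T (90.8%). In those lines the groups overlapped. As a share of all reads the members took 1.63% to 4.12% in SUM149PT siCtrl, 0.538% to 1.93% in SUM149PT siASAP1, and 1.55% to 3.17% across the BT549 libraries.

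**Figure D2:**
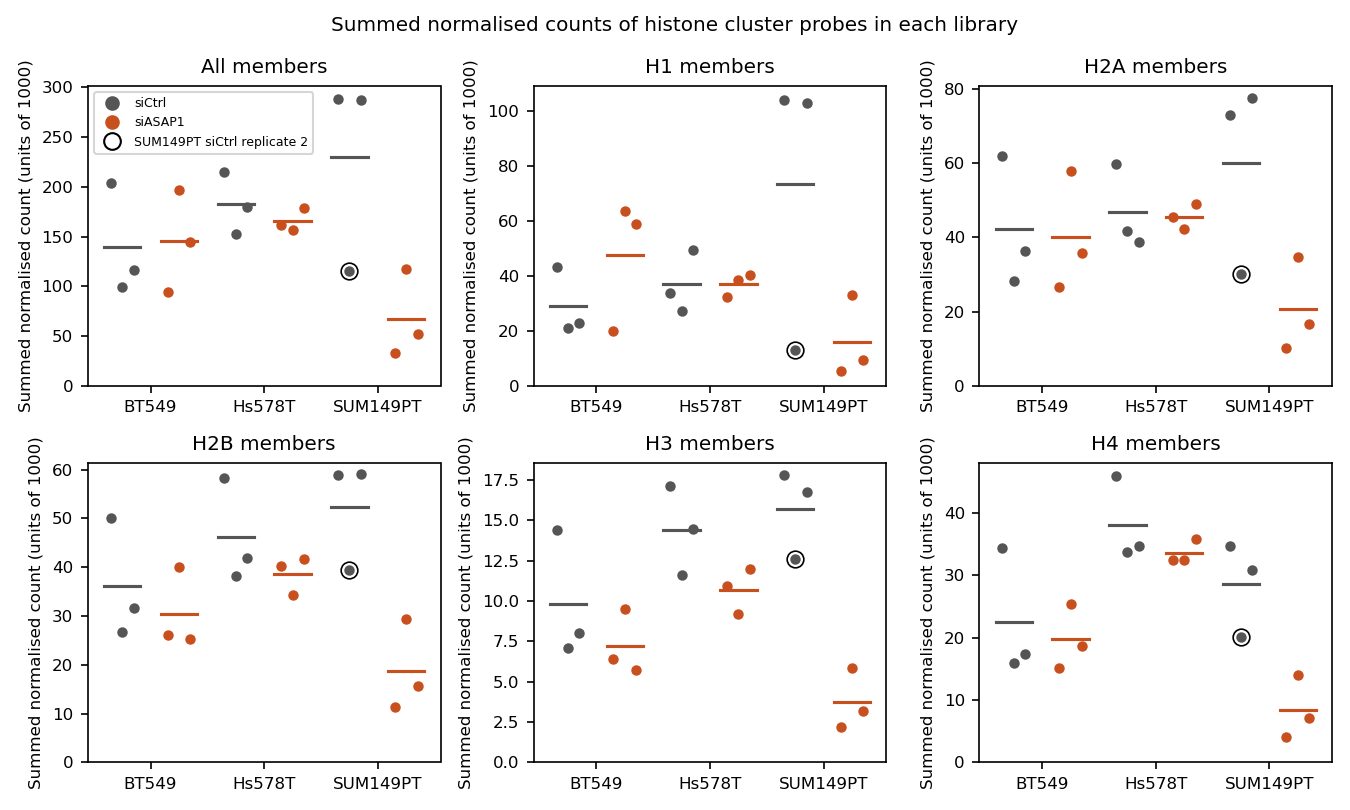
Summed normalised counts (y axes, from 0, in units of 1000) of all members and of each histone class, by cell line and siRNA, with 1 point per library and a line at the mean of 3. The SUM149PT siASAP1 mean is the lowest of the 6 in every panel, and the circled library labelled SUM149PT siCtrl replicate 2 lies within the siASAP1 range for H1 (13084 against 103985 and 102606) and closer to the other siCtrl libraries for H3 (12577 against 17799 and 16772).

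By class, the siASAP1 mean of the SUM149PT sums was 21.8% of siCtrl for H1, 34.3% for H2A, 35.7% for H2B, 23.8% for H3 and 29.4% for H4, and 15.5%, 27.4%, 31.8%, 21.7% and 25.6% without the library labelled SUM149PT siCtrl replicate 2. The H2B, H3 and H4 sums of all 3 siCtrl libraries lay above all 3 siASAP1 libraries, the lowest siCtrl H3 sum being 12577 and the highest siASAP1 sum 5877. For H1 and H2A the groups overlapped at that library. In BT549 the H1 sum moved the other way, 163.7% of siCtrl, with siASAP1 at 20049 to 63506 and siCtrl at 20892 to 43133, so the groups overlapped. In Hs578T the H3 sum was 74.4% of siCtrl, with siASAP1 at 9210 to 11963 and siCtrl at 11604 to 17094, which overlapped at one library.

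Counted without the library labelled SUM149PT siCtrl replicate 2, 48 of 62 members tested were called lower (8.94% of all probes) and 0 higher (14.4%), 34 of them among the 37. By class these were 4 of 5 H1, 16 of 18 H2A, 12 of 15 H2B, 9 of 11 H3 and 7 of 13 H4. HIST1H2AE, kept by the filter through siCtrl alone, was among them. The median was then -2.16, and 6 members passed adjusted p under 0.05, where 1.08% of all probes did, namely HIST1H3F, HIST1H3D, HIST1H2BB, HIST1H2AJ, HIST1H1A and HIST1H4A (0.049 each). Leaving out SUM149PT siASAP1 replicate 1 instead, the library with the lowest sums, left 23 called, and any other omission between 25 and 50. The shares of all probes were not counted for these further omissions. With all 18 libraries in a single fit, which pools the spread of the 3 lines, 49 were called lower and 0 higher, where 7.47% and 7.34% of all probes were. In that fit 19 passed the adjusted p, where 2.48% of all probes did. The median log2 SD of members was 1.00 in siASAP1 and 0.93 in siCtrl of SUM149PT, against 0.33 and 0.47 in Hs578T. The pooled spread can therefore understate that of SUM149PT, and the fit can call too many members there.

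**Figure D3:**
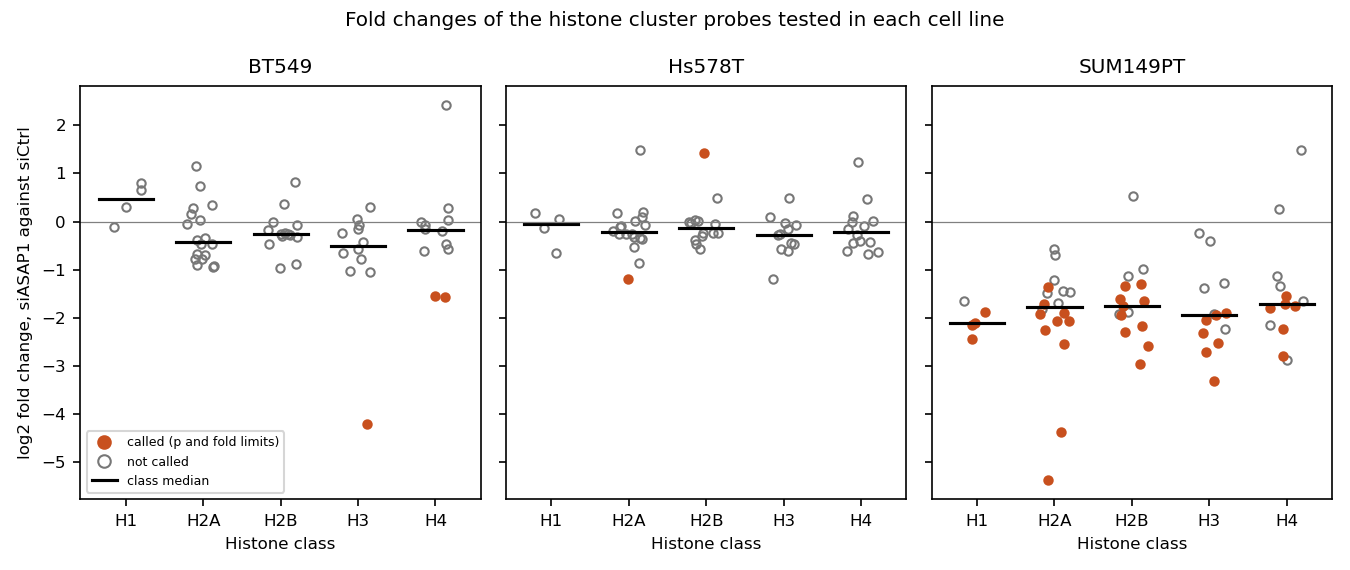
Log2 fold change of siASAP1 against siCtrl (y axis) for each member tested in BT549, Hs578T and SUM149PT, by histone class (x axis), with filled points for called members and bars at class medians. SUM149PT class medians lie between -2.11 (H1) and -1.72 (H4), while those of BT549 and Hs578T lie between -0.50 and 0.48.

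Among the linker histone genes, HIST1H1B encodes H1.5, and its probe gave 69110, 7559 and 71925 in SUM149PT siCtrl replicates 1 to 3 and 2793, 18619 and 4593 in siASAP1. The groups overlapped at the second replicate of each, and the log2 fold change was -2.43 ± 1.00 (SE). That was called (adjusted p = 0.47), although not under 7 of 15 alternatives. Without the library labelled siCtrl replicate 2 it was -3.51 ± 0.69 (adjusted p = 0.055). HIST1H1E, which encodes H1.4, gave 32581, 4767 and 28146 in siCtrl and 2371, 13803 and 4394 in siASAP1, overlapped in the same way, and was not called (-1.64 ± 0.87, adjusted p = 0.57) unless that library was left out (-2.53 ± 0.64). HIST1H1D, the gene of H1.3, did the reverse. Its siCtrl counts were 57.2, 127 and 52.8, with the library labelled siCtrl replicate 2 highest, and all lay above the siASAP1 counts of 6.61, 23.1 and 23.7. It fell by 2.16 ± 0.76 (adjusted p = 0.42), and without that library was no longer called (-1.76 ± 0.86).

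Among the H2A genes, the probe HIST1H2AJ gave 28843, 16767 and 31514 in SUM149PT siCtrl and 4255, 10001 and 7025 in siASAP1, groups that did not overlap, and its log2 fold change was -1.89 ± 0.44 (adjusted p = 0.33). HIST2H2AB gave 649, 514 and 836 against 64.8, 250 and 154, again apart (-2.26 ± 0.56, adjusted p = 0.33, and -2.43 ± 0.58 without the library labelled siCtrl replicate 2). By contrast the 2 probes with the highest mean log2 value of the class, HIST2H2AA4_2964 and HIST2H2AA3, overlapped between groups and were not called. HIST2H2AA4_2964 gave 13684, 3760 and 14729 in siCtrl and 1922, 8405 and 3814 in siASAP1 (-1.21 ± 0.70, adjusted p = 0.60), and was called without the library labelled siCtrl replicate 2 (-1.85 ± 0.55). HIST2H2AA3 gave 3903, 1174 and 4967 in siCtrl and 945, 4460 and 1673 in siASAP1 (-0.56 ± 0.72, adjusted p = 0.81), and without that library it was still not called (-1.20 ± 0.58). The second HIST2H2AA4 probe, HIST2H2AA4_2963, was called (-1.92 ± 0.60, and -1.73 ± 0.64 without it). The largest fold was that of HIST1H2AE, singled out here after its values were seen, with 93.0, 47.4 and 117 in siCtrl and 0, 6.41 and 0 in siASAP1 (-5.38 ± 1.15, and -5.75 ± 1.40 without the library labelled siCtrl replicate 2). With a siASAP1 mean of 2.14 it passed the filter through siCtrl alone, so it had to differ, and the fitted fold depends on the pseudocount of 1.

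Among the H2B genes, HIST1H2BC_28172 gave 12491, 20938 and 12966 in SUM149PT siCtrl and 4851, 7715 and 5479 in siASAP1. The groups did not overlap, the library labelled siCtrl replicate 2 was the highest of the 6, and the log2 fold change was -1.35 ± 0.38 (adjusted p = 0.36), or -1.11 ± 0.32 without that library. Its second probe, HIST1H2BC_2952, was also called (-1.30 ± 0.55), but not without that library (-0.79 ± 0.42). HIST1H2BD differed between its probes. HIST1H2BD_27314 gave 20598, 6108 and 21345 in siCtrl and 2638, 9515 and 3768 in siASAP1 and was called at -1.61 ± 0.65, although not under 7 of 15 alternatives. HIST1H2BD_18171 gave 217, 67.4 and 203 in siCtrl and 218, 208 and 202 in siASAP1, with 5 of the 6 libraries between 202 and 218 (0.54 ± 0.56, not called, and -0.01 ± 0.40 without the library at 67.4). GENCODE v29 lists 2 transcripts for HIST1H2BD, with up to 2 exons, and which of them each probe reads was not determined. HIST1H2BB gave 502, 204 and 520 against 58.2, 98.7 and 99.9, which did not overlap (-2.16 ± 0.54, adjusted p = 0.33).

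Among the H3 genes, HIST1H3F had the smallest p of all members in SUM149PT. Its counts were 7294, 5816 and 6835 in siCtrl and 925, 2176 and 1185 in siASAP1, so that every siCtrl library, the one labelled replicate 2 included, lay well above every siASAP1 library. The log2 fold change was -2.31 ± 0.41 (adjusted p = 0.26), and -2.40 ± 0.40 without that library. HIST1H3D gave 3747, 1686 and 3661 against 544, 1058 and 693, likewise apart (-1.95 ± 0.46, adjusted p = 0.33). HIST3H3, the gene of the testis histone H3t, was read at low counts, 24.3, 21.9 and 16 in siCtrl and 0, 8.97 and 0 in siASAP1 (-3.31 ± 1.43, adjusted p = 0.49). It passed the filter through siCtrl alone, and it did not pass the filter once the library labelled siCtrl replicate 2 was left out. HIST1H3E was not called (-0.40 ± 0.61), with siCtrl at 67.2, 44.6 and 41.6 and siASAP1 at 23.8, 52.6 and 42.1.

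Among the H4 genes, HIST2H4B gave 10895, 5174 and 9888 in SUM149PT siCtrl and 1196, 4624 and 2438 in siASAP1, which did not overlap by a narrow margin (-1.79 ± 0.56, adjusted p = 0.38). HIST1H4H gave 9933, 3979 and 8072 against 1031, 4016 and 1991, where the library labelled siCtrl replicate 2 fell just under the second siASAP1 library (-1.76 ± 0.58, adjusted p = 0.40). HIST1H4E gave 2476, 4135 and 1464 against 651, 1401 and 654, with the library labelled siCtrl replicate 2 highest (-1.55 ± 0.51, adjusted p = 0.40). All 3 were also called without that library. Across the whole set, 29 of the 64 members, HIST1H2AE and HIST3H3 among them, had every siASAP1 library below every siCtrl library, where 8.41% of all probes did. None, 0 of 64, had every siASAP1 library above, where 8.87% of all probes did. Without the library labelled siCtrl replicate 2 these were 55 and 1 of 62, where 21.4% and 23.3% of all probes were.

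**Figure D4:**
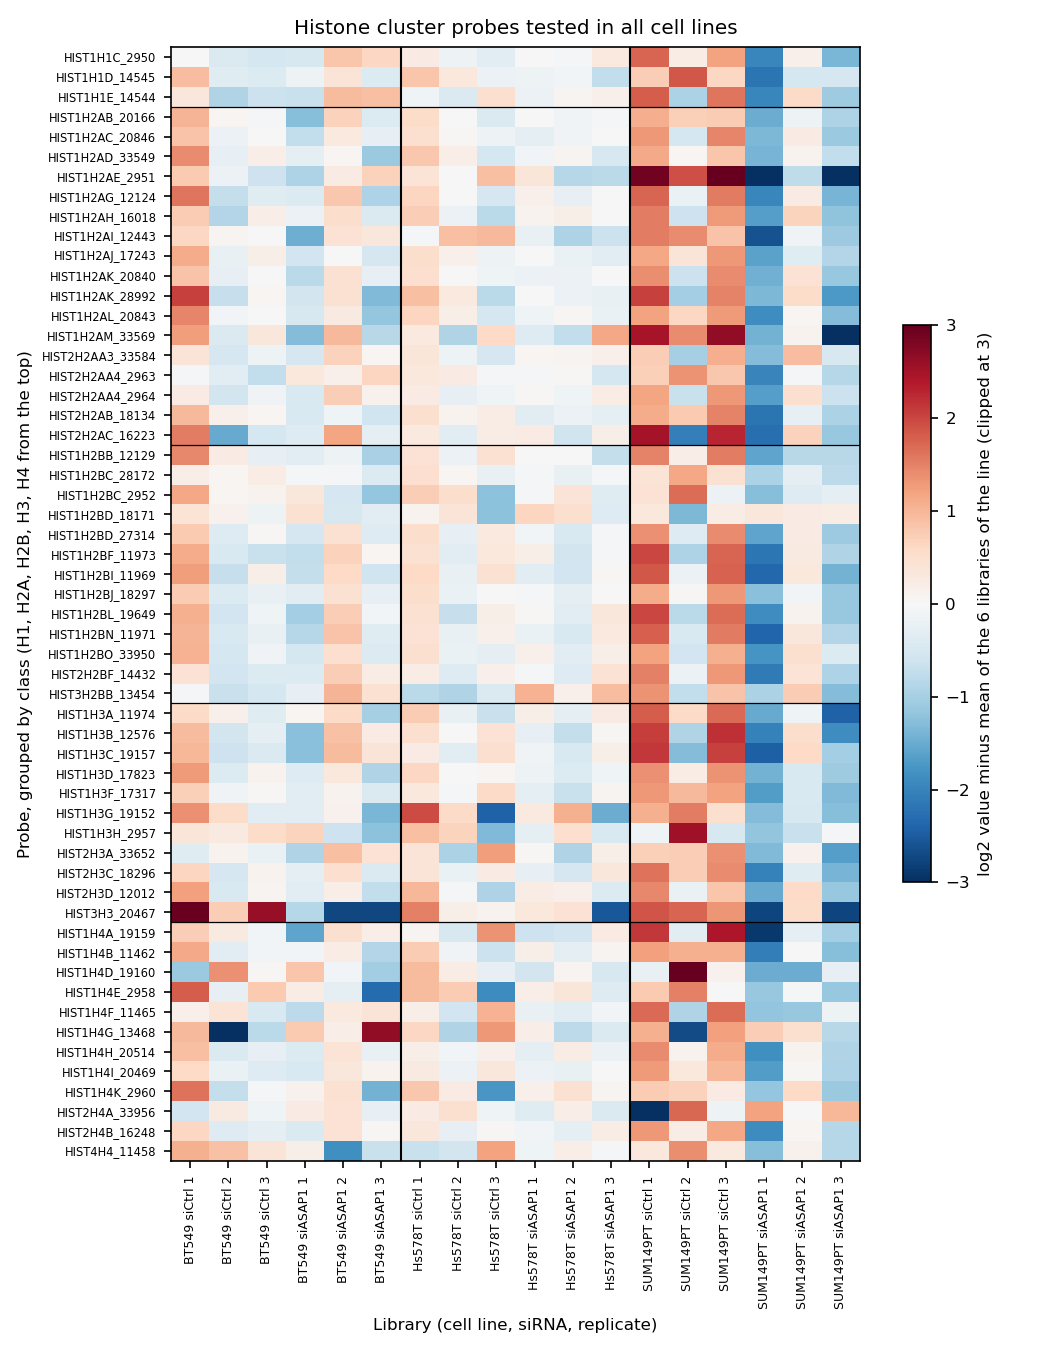
Log2 values of the 56 members tested in all 3 lines (rows, by class), centered on the mean of the 6 libraries of each line (columns), in red above and blue below that mean and clipped at 3. In SUM149PT siCtrl replicates 1 and 3 are mostly red and siASAP1 replicate 1 mostly blue, siCtrl replicate 2 holds both colors, and in BT549 siCtrl replicate 1 is red for most rows.

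The library labelled SUM149PT siCtrl replicate 2 did not lie low for every member. Of the 64 members it lay below both other siCtrl libraries for 46, above both for 13 and between them for 5, against 41.1% below and 46.2% above over all probes. It was below the highest siASAP1 library for 30. For H1 its median difference from the mean of the other siCtrl pair was -2.14 on the log2 scale and for H4 it was -0.09. Members above both included HIST1H4D, at 1398 where the other siCtrl libraries had 117 and 150, and HIST1H3H, at 3373 against 529 and 417. These were picked after their values were seen. Neither gene was called, and their siASAP1 counts of 49.0, 48.7 and 116, and of 254, 364 and 562, lay around or below the other siCtrl pair.

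The spread between replicates was wide for these genes in SUM149PT. The median SD of the log2 value among members was 1.00 in siASAP1, against 0.71 for all probes, and 0.93 against 0.87 in siCtrl. In siASAP1 it came mostly from replicate 2, which lay above the group mean for 58 of 64 members, while replicate 1 lay below it for 58. In BT549 siCtrl the median SD was 0.67 against 0.50, and replicate 1 lay above the mean for 56 of 60 members. In Hs578T the median SD was 0.33 against 0.43 in siASAP1 and 0.47 against 0.55 in siCtrl. The summed counts of the S phase genes described below were also highest in replicate 2 of SUM149PT siASAP1 and in replicate 1 of BT549 siCtrl (21743 against 14811 and 16951). In Hs578T siCtrl they were highest in replicate 3 (23271), while the members were highest in replicate 1. The part of S phase in the spread was not tested.

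In BT549, 3 of 60 members fell (5.00%, where 3.69% of all probes were called lower) and 0 rose (3.28%). Those that fell were HIST3H3, HIST1H4E and HIST4H4. HIST3H3 gave 51.2, 10.1 and 39.3 in siCtrl and 2.67, 0 and 0 in siASAP1, and did not overlap (-4.21 ± 1.28, adjusted p = 0.53), but it passed the filter through siCtrl alone (siASAP1 mean 0.889) and so had to differ. HIST1H4E gave 3921, 937 and 1917 against 1296, 923 and 222, which overlapped (-1.57 ± 0.68, adjusted p = 0.63). The median over members was -0.26 against 0.00 for all probes. By limma 0 passed the adjusted p (3 at unadjusted p under 0.05, 7.80% of all probes), and voom called 2. The groups were apart for 5 members, 4 with siASAP1 lower (6.51% of all probes) and 1 with siASAP1 higher (7.35%), and 43 fold changes were negative (50.1%). These counts rested on single libraries: without siCtrl replicate 1, the library high in most members, 0 were lower and 3 higher, and without siASAP1 replicate 1, 6 were lower and 4 higher. The shares of all probes were not counted under these omissions, so the counts cannot be set against them.

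In Hs578T, 1 of 62 members fell and 1 rose (1.61% each, where 1.44% of all probes were called lower and 1.34% higher), shares close to those of all probes. HIST1H2AI fell, with 42.2, 82.4 and 86.7 in siCtrl and 37.4, 22.5 and 27.7 in siASAP1, groups that did not overlap (-1.20 ± 0.48, adjusted p = 0.92). It also fell in SUM149PT, from 157, 147 and 99.1 to 7.94, 50.0 and 25.0 (-2.54 ± 0.74, and -2.47 ± 0.84 without the library labelled siCtrl replicate 2). HIST3H2BB rose by 1.42, from 21.1, 19.6 and 27.6 to 78.2, 41.6 and 72.5. The groups did not overlap, and the probe was not called in the other lines. By limma 0 passed the adjusted p (2 at unadjusted p under 0.05, 5.28% of all probes), and voom also called 1 in each direction. The groups did not overlap for 3 members with siASAP1 lower (5.78% of all probes) and 2 with siASAP1 higher (6.31%), and 45 fold changes were negative (49.2%), or 36 under library-total scaling. The median over members was -0.21 against 0.01, and under library-total scaling, which moved the median of all probes to 0.12, the member median was -0.10. The count of lower calls was 0 without siASAP1 replicate 2 or 3 and 2 without siASAP1 replicate 1 or siCtrl replicate 2, and that of higher calls was 0 without siASAP1 replicate 1 or 3. The shares of all probes were not counted under these omissions.

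Fitted over the 18 libraries with a term for cell line, 4 of 64 members fell and 0 rose at adjusted p under 0.05, where 1.06% of all probes were called lower and 0.678% higher. These were HIST3H3 (-2.91 ± 0.63, adjusted p = 0.020), HIST2H2AB (-1.19 ± 0.28, adjusted p = 0.035), HIST1H3F (-1.10 ± 0.27, adjusted p = 0.042) and HIST1H2BB (-1.20 ± 0.30, adjusted p = 0.045), all of which were also called in SUM149PT. HIST3H3 had siASAP1 means of 0.889 in BT549 and 2.99 in SUM149PT, so it passed the filter through the groups where it was high. The unadjusted p was under 0.05 for 28 members (15.8% of all probes), and the fold change was negative for 57 (48.3%). HIST2H2AB was the one of the 4 whose siASAP1 libraries lay below all siCtrl libraries in each line: 341 to 469 against 534 to 1001 in BT549, and 708 to 772 against 942 to 1218 in Hs578T. Its single-line changes there were -0.78 ± 0.39 and -0.53 ± 0.24 and were not called. Under the alternative settings and omissions, HIST3H3 lost its call in 2 of 24, HIST2H2AB in 11 of 25, HIST1H3F in 15 of 25 and HIST1H2BB in 18 of 25. HIST3H3 lost its call under the omission of BT549 siCtrl replicate 1 (adjusted p = 0.053), where 0 members remained called. Without the library labelled SUM149PT siCtrl replicate 2 there were 2 lower and 0 higher (0.952% and 0.577% of all probes). In all, 11 of the 18 omissions of a single library left 2 members or fewer.

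By limma, 0 members passed adjusted p under 0.05 in the test of the interaction of cell line and treatment, so a difference between lines was not shown at that threshold for any of them. Of all probes, 0.00955% passed it. At unadjusted p under 0.05 there were 20 of 64 members (6.22% of all probes), 19 with voom weights. The smallest adjusted p was 0.13 for HIST1H2AE, one of the members kept by the filter in SUM149PT through siCtrl, followed by 0.20 for HIST1H2BE. For HIST1H3F it was 0.27. Without the library labelled SUM149PT siCtrl replicate 2, 0 members passed the adjusted p by limma (0.250% of all probes), the smallest was 0.064, and 39 had an unadjusted p under 0.05 (16% of all probes).

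Control libraries alone were compared between lines, to give the level of each member without ASAP1 silencing. Whether size factors were set within or across lines is not stated in the methods. Between SUM149PT and BT549, 1 member was lower and 9 were higher at adjusted p under 0.05 with an absolute log2 fold change over 1, where 8.76% and 9.40% of all probes were. Between SUM149PT and Hs578T these were 2 and 11 (10.5% and 9.64% of all probes), and between BT549 and Hs578T 1 and 8 (7.58% and 6.26%). The 3 comparisons share libraries. Without the library labelled SUM149PT siCtrl replicate 2 the counts were 1 and 19 (18.4% and 14.8% of all probes), 2 and 14 (17.5% and 13.2%), and 8 and 8 of 64 (11.4% and 9.96%).

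Differences between lines were large for a few genes, while the summed siCtrl levels of the lines overlapped. That overlap rested for SUM149PT on the library labelled siCtrl replicate 2, at 115207, since the other pair lay above every siCtrl sum of BT549 and Hs578T. HIST1H1B, at 9001 to 15555 in BT549 siCtrl, was at 2.53, 6.53 and 3.94 in Hs578T siCtrl and 9.07, 0.578 and 6.40 in Hs578T siASAP1 (BT549 against Hs578T, 11.06 ± 0.77, adjusted p = 2.4e-05). HIST1H2AJ was at 165, 126 and 102 in Hs578T siCtrl and 3639 to 9229 in BT549 (5.39 ± 0.42, adjusted p = 3.6e-05). Its annotated transcript shares 83.7% of its 50-base windows with another member, so which gene it reads is uncertain. HIST3H2A was at 0 reads in all 6 Hs578T libraries, and against a floor of 3 reads per library its siCtrl mean was at least 16.2-fold higher in BT549 and at least 25.4-fold higher in SUM149PT.

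HIST1H3J, an H3.1 gene, was read in BT549, at 603, 721 and 478 in siCtrl, and was at 0, 3.26 and 0 in Hs578T and 1.43, 41.0 and 1.60 in SUM149PT. The log2 difference of SUM149PT from BT549 was -6.53 ± 1.10 (adjusted p = 0.0022). HIST1H3E had the opposite pattern, with 0 reads in the 3 BT549 siCtrl libraries, 24.5, 19.6 and 32.5 in Hs578T and 67.2, 44.6 and 41.6 in SUM149PT. HIST1H2BE was at 123, 118 and 169 in SUM149PT siCtrl and at most 2.45 in the siCtrl libraries of the other lines (6.69 ± 0.72 against BT549, adjusted p = 0.00012). It fell in SUM149PT after siASAP1 to 10.6, 57.7 and 15.8 (-2.59 ± 0.72, adjusted p = 0.36, and -2.69 ± 0.81 without the library labelled siCtrl replicate 2), and in Hs578T it was at 14.7, 4.63 and 10.7 after siASAP1 and was not tested.

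**Figure D5:**
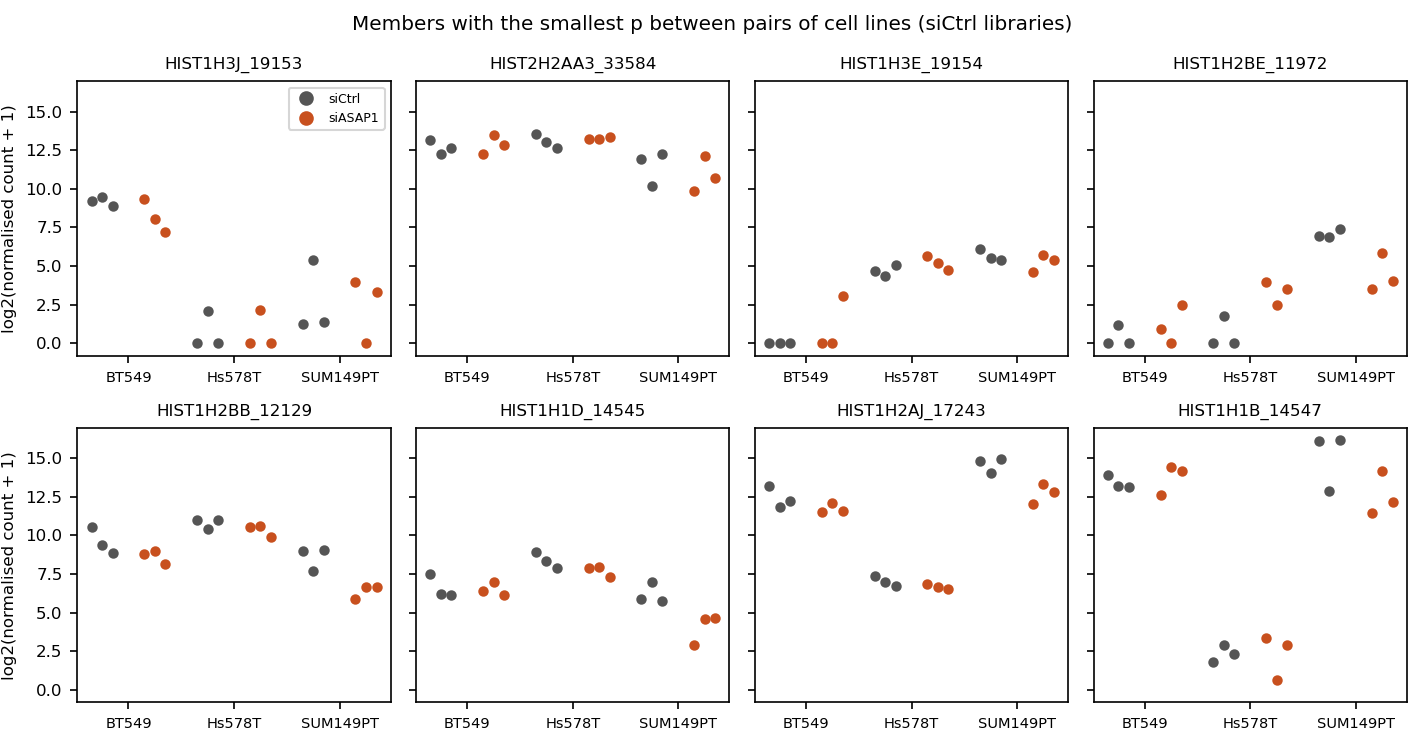
Log2 of the normalised count plus 1 (y axis) in each of the 18 libraries for the 8 members with the smallest p between pairs of lines in siCtrl libraries, grey for siCtrl and orange for siASAP1. HIST1H1B lies near 0 to 3 in Hs578T and above 11 in BT549 and SUM149PT, and HIST1H3J above 7 in BT549 alone.

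Lower in SUM149PT than in Hs578T were HIST1H2BB, at 502, 204 and 520 against 2052, 1337 and 2072 (-2.24 ± 0.51, adjusted p = 0.012), and HIST1H1D, at 57.2, 127 and 52.8 against 478, 330 and 233 (-2.18 ± 0.54, adjusted p = 0.017). Neither pair of groups overlapped. HIST2H2AA3 gave 9126, 4917 and 6276 in BT549 siCtrl against 3903, 1174 and 4967 in SUM149PT and was not called (-1.21 ± 0.53, adjusted p = 0.16).

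By cluster, members called lower in SUM149PT were 30 of 49 tested in HIST1, 6 of 11 in HIST2, 1 of 3 in HIST3 and 0 of 1 in HIST4. The medians of HIST1 and HIST2 were -1.89 and -1.79. Without the library labelled SUM149PT siCtrl replicate 2 the counts were 39 of 48, 9 of 11, 0 of 2 and 0 of 1. HIST4H4 had siCtrl counts of 122, 259 and 120 and siASAP1 counts of 39.7, 106 and 53.9 in SUM149PT, which did not overlap (-1.33, or -0.97 without that library, not called either way), and it was called in BT549 (-1.55). Across the 3 lines 36 members were called in 1 line, 3 in 2 and 0 in 3, and the matching shares of all probes were not counted. Of those called in 2 lines, HIST3H3 passed the filter through siCtrl alone in each.

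Genes that act with the clustered histones were read from 4 lists. Their counts stand beside the shares of all probes called lower, 4.29% in SUM149PT (8.94% without the library labelled SUM149PT siCtrl replicate 2), 3.69% in BT549 and 1.44% in Hs578T, and called higher, 5.27% (14.4%), 3.28% and 1.34%. S phase genes (replication and nucleotide synthesis factors, 20 probes) were called lower for 6 of 18 tested in SUM149PT and higher for 0, with a median of -1.42, and for 11 of 17 without the library labelled SUM149PT siCtrl replicate 2. Those called with all libraries were MCM3, MCM6 and MCM7 of the replicative helicase, GINS2, CCNA2 (cyclin A) and GMNN. Their list sum was 7720, 15291 and 9634 in SUM149PT siASAP1 and 35935, 16807 and 39242 in siCtrl, so the library labelled SUM149PT siCtrl replicate 2 and siASAP1 replicate 2 lay next to each other here as in the histone sums. In BT549 and Hs578T 1 and 2 of 19 were called lower, MCM6 among them in each (-1.19 ± 0.36 and -1.0 ± 0.33), and over the 18 libraries MCM6 fell by 1.38 ± 0.22 (adjusted p = 0.0035).

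Histone chaperones were called lower for 3 of 18 in SUM149PT: NASP, which holds soluble H3-H4 and H1 (-1.91 ± 0.41, adjusted p = 0.33), HAT1, which acetylates new H4 (-1.75 ± 0.44), and ASF1B (-2.11 ± 0.53). Without the library labelled SUM149PT siCtrl replicate 2, 5 of 17 probes were lower and 2 higher. The lower ones were the same 3 with SSRP1 and a probe of ANP32E, NASP and ASF1B at adjusted p = 0.049 each, and the higher ones were ASF1A (2.01 ± 0.57) and the other ANP32E probe (3.14 ± 0.94). None of 19 in BT549 or of 17 in Hs578T was called by limma, and 0 of these had an unadjusted p under 0.05. Factors of histone transcription and mRNA processing were called for 1 of 18 in SUM149PT, CCNE1 (cyclin E1, -2.96 ± 1.20), and for none in the other lines. When the library labelled SUM149PT siCtrl replicate 2 was left out CCNE1 was not called (-2.80 ± 1.54), and 1 of 19 was higher, NCBP1 of the cap-binding complex (1.06 ± 0.37). The median of this list was 0.12 in SUM149PT (0.33 without that library), unlike those of the histones and the S phase genes.

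Replacement histones were called lower for 1 of 9 probes tested in SUM149PT, H2AFZ (-1.15 ± 0.47, adjusted p = 0.47). Without the library labelled SUM149PT siCtrl replicate 2, 3 of 8 were, namely H2AFJ, H2AFZ and the probe H2AFX_2861 (-1.67 ± 0.47). The other H2AFX probe, H2AFX_26072, was not called there (-1.15 ± 0.60). In BT549 H2AFY (macroH2A1) and H1F0 (H1.0) were higher (1.30 ± 0.36 and 1.30 ± 0.56), and in Hs578T the probe H2AFX_26072 was higher (1.24 ± 0.55). None of the 4 passed the adjusted p. The list's median in SUM149PT was -1.15, between that of all probes and that of the clustered members.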

How the data were processed

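Lysates of 18 wells were read by TempO-Seq, in which pairs of detector oligos ligated on their target RNA are amplified and sequenced. The deposited table held log2 normalised values, log2(normalised count + 1), for 21111 probes, made by the authors with DESeq2 size factors. The submitters' processing notes name bcl2fastq, Bowtie and DESeq2, and the genome build and versions were not given in the sources used here. From these values whole reads were recovered for 100% of values (tolerance 0.01 read), which gave the depth of 4633629 to 12488575 reads per library. Intervals and floors cover counting error only. Probe sequences were not used here.

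Members and gene lists were chosen with earlier results of these data known. Comparisons were fitted with limma 3.58.1 (R 4.3.3, lmFit and eBayes with trend) on the deposited log2 values over all probes with a mean normalised count of at least 10 in the libraries of the fit. Single-line comparisons were called at p under 0.05 and absolute log2 fold change over 1, the fit over 18 libraries and the interaction at Benjamini-Hochberg adjusted p under 0.05, and the control comparisons at adjusted p under 0.05 with that fold limit. Errors of fold changes are limma standard errors. Values in every library were given for the 2 probes per class with the highest mean log2 value, members with adjusted p under 0.05 over 18 libraries, members called in 2 lines, and the 2 per direction with the smallest p between lines. Alternatives were other library scalings, filters and pseudocounts, voom weights, a replicate block and leaving out each library. The fits were run on simulated counts, with changes placed in well-read probes and the same spread set for all lines. That did not check them at the low counts of some members or at the wide spread seen in SUM149PT. Replicate pairs differed by more than counting noise (chi-square per degree of freedom 10.1 to 247). Gene positions and stem-loops came from GENCODE v29 and promoters from RefSeq (GRCh38.p14).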

Additional observations from a re-analysis of the deposited data

Results flagged for a closer look

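The probe HIST2H2AA4_2963 lay on opposite sides of the control libraries in 2 lines. It was found by a search of all members in the 3 lines, and the share of all probes with such a pattern was not counted. Of all probes, 7.35% had every siASAP1 library above every siCtrl library in BT549, and 8.41% had every one below in SUM149PT. In BT549 the siASAP1 libraries gave 406, 362 and 510 and the siCtrl libraries 312, 260 and 194, all siASAP1 above all siCtrl (log2 fold change 0.75, not called, adjusted p = 0.65). In SUM149PT they gave 27.8, 108 and 61.8 against 184, 284 and 198, all below (-1.92). The difference between these 2 lines was not tested on its own. The limma interaction test over the 3 lines gave an adjusted p of 0.22. The second probe of the gene, HIST2H2AA4_2964, overlapped between groups in both lines.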

How the results depend on the processing

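No member named by rule that was called changed direction under a setting in which it was recomputed. Those not called changed sign 24 times, for 13 values, none past the threshold on the other side. Outside the rule, HIST1H2BD_18171 and HIST1H4G in SUM149PT, both not called, changed sign without the library labelled siCtrl replicate 2 (0.54 to -0.01 and 0.25 to -1.02). In SUM149PT the lower calls (37) stayed within 1.5 times under library-total scaling (30), TMM (40), no filter (41), a minimum mean of 50 (32), voom (37) and a pseudocount of 0.1 (36), but were 0 at adjusted p under 0.05. Over all probes the lower calls were 432 as deposited, 267 under library-total scaling and 493 under TMM. Shares of all probes are not given here for the other settings, so those counts cannot be set against them. In BT549 the lower calls (3) were 1 at a minimum mean of 50 and 0 at adjusted p. In Hs578T the lower call (1) was lost, to 0, without a filter, at a minimum mean of 50, with 18 libraries in a single fit and at adjusted p, and the higher call (1) was 2 without a filter and in the single fit and 0 under the other pair. Over 18 libraries the lower calls (4) were 2 under library-total scaling and 1 without a filter. For BT549 against Hs578T the lower call (1) was 3 without a filter or with voom and 0 at a minimum mean of 50. The causes were not tested.

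Same-numbered libraries did not deviate together in every line (correlations -0.66 to 0.42), so the replicate numbers were not taken to pair libraries. Every library correlated best with its own number in Hs578T but not in the other lines. With a replicate block the lower calls were 24 in SUM149PT, 3 in BT549, 1 in Hs578T, 0 over 18 libraries, 4 for SUM149PT against Hs578T and 5 for BT549 against Hs578T. The shares of all probes were not counted with the block.

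Leaving out each library in turn gave 23 to 50 lower calls in SUM149PT, 0 to 6 lower and 0 to 4 higher in BT549, 0 to 2 lower and 0 to 1 higher in Hs578T, 0 to 5 lower over 18 libraries, and 0 to 1 for the interaction (1 without SUM149PT siASAP1 replicate 2). Shares of all probes were counted only for the omission of the library labelled SUM149PT siCtrl replicate 2. Over 18 libraries 0 members were left called without BT549 siCtrl replicate 1. There was 1 without BT549 siASAP1 replicate 3, Hs578T siASAP1 replicate 1, Hs578T siCtrl replicate 1, or SUM149PT siASAP1 replicate 3, siCtrl replicate 1 or siCtrl replicate 3. There were 2 without Hs578T siASAP1 replicate 3, SUM149PT siASAP1 replicate 1 or 2, or siCtrl replicate 2. Between control groups, SUM149PT against BT549 gave 5 to 19 higher calls (5 without BT549 siCtrl replicate 2 or 3 or SUM149PT siCtrl replicate 1 or 3), SUM149PT against Hs578T 0 to 2 lower (0 without Hs578T siCtrl replicate 1, and 1 without Hs578T siCtrl replicate 2 or SUM149PT siCtrl replicate 1) and 8 to 14 higher, and BT549 against Hs578T 1 to 8 lower (3 without BT549 siCtrl replicate 1) and 4 to 8 higher (5 without BT549 siCtrl replicate 1, and 4 without BT549 siCtrl replicate 2 or Hs578T siCtrl replicate 1 or 2).

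Library-total scaling moved the median of all probes from 0.01 to 0.12 in Hs578T and from 0.02 to 0.14 over 18 libraries, and the share of lower among all calls from 51.9% to 30.5% and from 61% to 39.6%. The member median relative to all probes in SUM149PT was -1.93, -1.92 and -1.93 under the deposited, library-total and TMM scalings. The 3 libraries per group, and counts under 50 for some members, limit the precision.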
